A study of Arabidopsis thaliana with 24 samples.

Results

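Stimulus-treated and mock-treated leaves of Arabidopsis thaliana were compared at 15 min after cordycepin, an adenosine analogue that ends growing RNA chains and is used to block transcription. The comparison took the 3 stimulus and the 3 mock libraries labelled 15 min, replicates 2, 3 and 4 of each treatment. These are 6 of the 24 libraries of the series, and every nuclear gene was considered, 37898 of the 38194 features in the deposited count table. The question was which stimulus differences stand after 15 min of blocked transcription, and how far the spread between replicates limits that call. Stimulus leaves were kept for 8 h in buffer that held 20 µM bikinin, 2.5 µg/mL of the auxin 2,4-D and 0.5 µg/mL of the cytokinin kinetin. Mock leaves were kept for 8 h in that buffer without these 3 agents, so 5% glucose and 0.2% dimethyl sulfoxide were present in both groups. Every sample then received 1 mM cordycepin, and the series also holds libraries of 0, 60 and 240 min. All samples were leaves 1 and 2, detached from Columbia-0 plants grown for 10 d in continuous light of 75 µE at 21 °C, with about 18 to 20 leaves pooled per sample. Nothing in the labels says that replicates came from separate cultures, so p-values here measure the spread between these samples, which may be technical.

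Bikinin inhibits GSK3-like kinases and thereby switches on brassinosteroid signalling downstream of the receptor. Together with auxin and cytokinin it is known to drive leaf mesophyll cells toward vascular fates, first through a procambium-like state and then to xylem or phloem. Each hormone acts through transcription and induces its own brakes, among them Aux/IAA repressors and GH3 conjugating enzymes for auxin, type-A response regulators and cytokinin oxidases for cytokinin, and loss of the biosynthesis transcripts for brassinosteroid. With transcription blocked, a transcript persists or declines at a pace set by its stability, and a normalised level is relative to the other transcripts of its library.

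The 6 libraries held about 25773600 to 34166500 counts each. Organelle genes took 30.8, 33.0 and 37.1% of them in stimulus replicates 2, 3 and 4, and 38.1, 41.9 and 42.6% in the mock replicates. As a check of the labels, GH3.3, an auxin-induced gene, stood at 482, 509 and 699.7 CPM in stimulus replicates 2, 3 and 4, against 1.17, 0.856 and 1.33 CPM in the mock replicates (CPM, a count relative to the size of its library, with sizes scaled by TMM over the 6 libraries). Leaf identity was checked on markers. The summed level of 3 mesophyll markers was 4234 to 9299 CPM in stimulus and 9546 to 17995 CPM in mock libraries. That of 4 root markers was 3.15 to 4.53 CPM in stimulus and 4.87 to 11 CPM in mock. Nearly all of the root sum came from SCR, since RHD6 had 0 counts and PLT2 and EXPA7 at most 1 count in each of the 6 libraries. The summed companion cell markers lay at 125 to 178 CPM in stimulus and 139 to 178 CPM in mock, guard cell markers at 12 to 27.1 CPM and 14.9 to 30.5 CPM in stimulus and mock, and epidermis markers at 189 to 223 CPM and 257 to 292 CPM in stimulus and mock. In such bulk samples fewer cells of a type and less RNA per cell cannot be told apart.

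Libraries stood apart in 3 ways that the treatment labels do not give. Replicate 3 of both treatments was set apart by clock genes. Replicate 4 of both had lower levels of genes chosen for their loss at a later time in stimulus replicates 2 and 4. Mock replicate 2 was set apart by high levels of wound-type and jasmonate transcripts. Each of these is given with its values below, and for the larger lists the counts of members called are given with and without libraries concerned. The levels raise a doubt about the labelled times, because replicate 4 at 15 min showed more decline, and mock replicate 2 at later times less, than other libraries of the same label. Whether each library holds its labelled time was not tested, so every value of 15 min is that of the libraries so labelled. In a principal component analysis of the 6 libraries, the first component took 65.5% of the variance and separated stimulus from mock. The component after it took 21.5% and had both replicate 4 libraries at one end.

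At 15 min the stimulus difference was large and broad. A call is an adjusted p under 0.05 in the quasi-likelihood F test of edgeR, with Benjamini-Hochberg adjustment, and 3281 of the 20401 nuclear genes with enough counts for a test had one (16.1%). Of these, 1471 were higher in stimulus (7.21%) and 1810 lower (8.87%), with a median absolute log2 change of 1.3. At least 2-fold changes were fitted for 994 of the higher and 1268 of the lower genes. All 3 stimulus libraries lay on one side of all 3 mock libraries for 7529 genes (36.9%), of which 3279 were called. The median log2 change of all genes tested was 0.02.

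When the replicate number entered the fit as a block, so that each stimulus library was set against the mock library of its number, 5423 genes were called (26.6%), 2533 higher (12.4%) and 2890 lower (14.2%). That fit kept 3233 of the 3281 calls and added 2190. The shares of all genes called, without and with the block, are the background for the counts of each list below. The split by direction depended on the scaling. With library sizes taken as total counts in place of TMM, the log2 change of all genes moved up by a median of 0.34, and the calls at 15 min became 3791 higher and 1195 lower.

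Auxin response genes were among the largest differences. GH3 enzymes join auxin to amino acids, and 4 of the 7 rose while 3 were not called. GH3.3, whose values are given above, showed no overlap between groups and rose by 8.98 ± 0.32 (log2 change ± SE, n = 3 libraries per group, edgeR adjusted p 0.000337). GH3.2 stood at 309, 459 and 119 CPM in stimulus against 0.440, 0.231 and 0.266 CPM in mock. Every stimulus library of GH3.2 was far above every mock library, and it rose by 9.87 ± 0.71 (edgeR adjusted p 0.00135). GH3.1 had 204, 247 and 131 counts in stimulus against 2, 0 and 1 in mock, a ratio of 157 (95% exact interval 53.5 to 764, counting error only). GH3.4 had 54, 86 and 32 counts in stimulus and 0 counts throughout mock. With mock set to a floor of 3 counts over the group, GH3.4 was at least 46.4-fold higher. The remaining members, GH3.5 (-0.46), GH3.6 (1.19) and GH3.17 (-0.99), were not past the threshold.

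Aux/IAA proteins are short-lived repressors of the auxin response factors, and their transcripts are rapid auxin targets. Of the 13 members tested 6 rose, and 9 with the replicate block, while none fell. Their median log2 change was 2.09, against 0.02 over all genes. The count that rose was 0 without replicate 2, 1 without replicate 3 and 10 of 14 without replicate 4 of both treatments, and with the block 7, 6 and 8. IAA19 had 27.6, 28.8 and 17.0 CPM in stimulus, against 1.32, 1.25 and 1.2 CPM in mock. The groups were separated by more than 10 times the mock level in each replicate, and IAA19 rose by 4.28 ± 0.26 (edgeR adjusted p 0.00108). IAA30 had 24.8, 33.1 and 9.19 CPM in stimulus, against 0.110, 0.165 and 0.443 CPM in mock, and rose by 6.59 ± 0.70 (edgeR adjusted p 0.00347). IAA5 had 105, 130.1 and 14.7 CPM in stimulus, against 1.5, 1.15 and 0.754 CPM in mock (6.18 ± 0.89, edgeR adjusted p 0.00731). In IAA5 and IAA30 stimulus replicate 4 was the lowest stimulus library. That library was the lowest of its group for 12 of the 13 members, and stimulus replicate 3 the highest of all 6 libraries for 12. IAA4 (2.09), IAA11 (0.64) and IAA29 (3.47) were called only with the block, with edgeR adjusted p of 0.109, 0.0538 and 0.0609 without it and 0.00803, 0.0171 and 0.0318 with it.

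**Figure D1:**
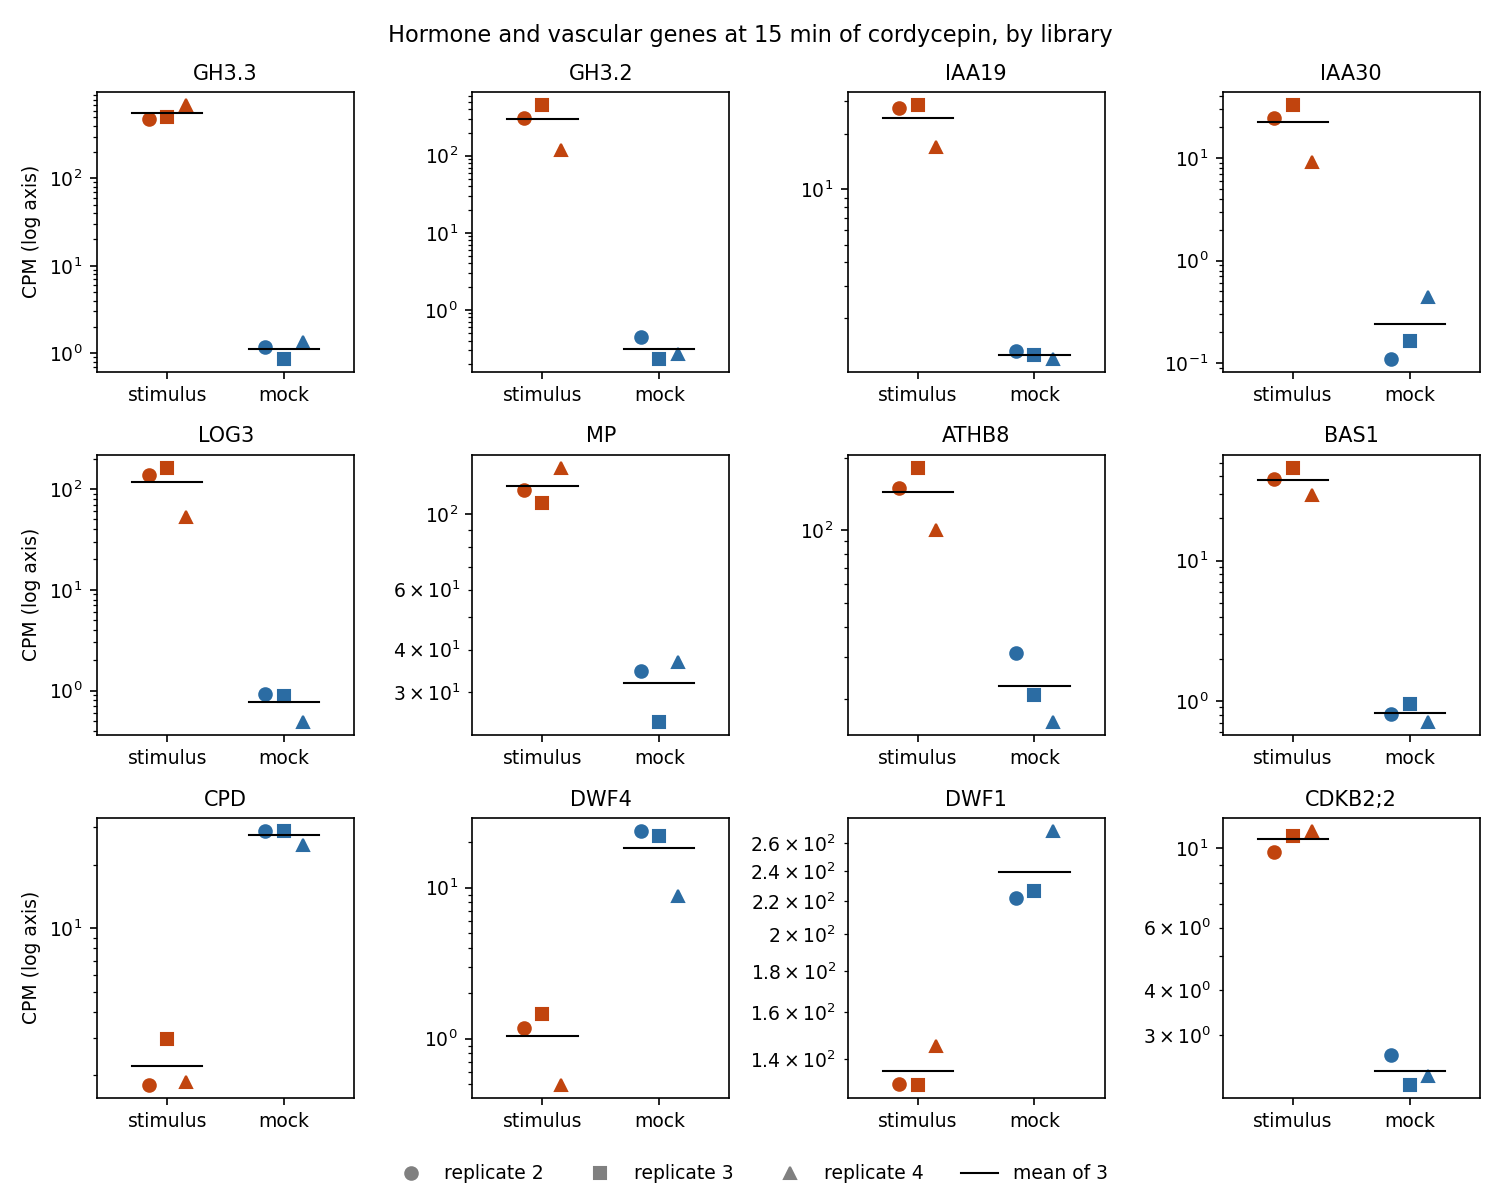
Levels of 12 hormone and vascular genes at 15 min of cordycepin. Each panel gives CPM on a log axis, with the 3 stimulus libraries left of the 3 mock libraries; symbols mark replicates 2, 3 and 4 and the black lines are means of 3. No panel shows an overlap between the groups, and replicate 4 is the lowest stimulus library for GH3.2, IAA19, IAA30, LOG3, ATHB8, BAS1 and DWF4.

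The 250 bases before the annotated start of 2 auxin-induced genes are shown because the auxin response element TGTCTC, to which auxin response factors are known to bind, can be seen in them. They are RefSeq sequence of TAIR10.1, read on the strand of the gene, 5′ to 3′, with matches to TGTCTC on either strand in capitals. The GH3.3 window (AT2G23170, chr2:9866563-9866812, minus strand) holds 1 match, 116 bases before the start. The IAA19 window (AT3G15540, chr3:5263751-5264000, plus strand) holds 3, at 184, 145 and 128 bases before the start.
GH3.3: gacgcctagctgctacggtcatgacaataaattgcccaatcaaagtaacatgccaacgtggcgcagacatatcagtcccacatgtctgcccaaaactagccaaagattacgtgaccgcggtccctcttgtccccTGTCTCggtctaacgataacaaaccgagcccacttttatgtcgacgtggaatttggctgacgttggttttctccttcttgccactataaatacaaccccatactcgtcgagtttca
IAA19: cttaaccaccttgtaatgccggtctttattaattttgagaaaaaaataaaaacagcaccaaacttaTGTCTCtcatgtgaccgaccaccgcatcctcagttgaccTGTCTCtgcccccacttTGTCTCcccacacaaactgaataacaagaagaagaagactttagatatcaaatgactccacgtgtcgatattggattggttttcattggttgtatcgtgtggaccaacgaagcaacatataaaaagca

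TGTCTC occurred on either strand in such windows of 5 of the 13 Aux/IAA genes, and in 10.4% of the 1454 genes called higher, 11% of the 1780 called lower and 10.7% of all 19026 tested genes with a window. The variant TGTCGG, which cannot match at the same position as TGTCTC, occurred in 4 of the 13 Aux/IAA genes, in 6.46% of the genes called higher, 4.44% of those called lower and 4.64% of all. A match is a run of letters and not a measured site.

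PIN exporters move auxin between cells. With the replicate block PIN6 rose, with a log2 change of 1.74 (edgeR adjusted p 0.0249, and 0.0606 without the block), and PIN7 fell by 0.63 on the log2 scale (0.0202 with and 0.168 without it). Of the LBD transcription factors, auxin targets known from lateral root initiation, only LBD16 had enough counts to be tested and it was not called (edgeR adjusted p 0.0751). LBD17, LBD29 and LBD33 had 0 counts in every library.

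Some cytokinin genes rose too, with replicate 4 apart from replicates 2 and 3. Type-A response regulators are rapid cytokinin targets that dampen the response. Of the 7 tested 3 rose while none fell, where 7.21% of all genes were called higher. With the block 3 rose as well. With limma-voom none was called, and with all 24 libraries in one fit 6 of 8 rose. ARR15 had 10.3, 12.5 and 2.13 CPM in stimulus, against 0.330, 0.264 and 0.0887 CPM in mock. It rose by 5.14 ± 0.81 (edgeR adjusted p 0.00933), and the groups did not overlap. ARR9 had 36.4, 27.3 and 9.99 CPM in stimulus against 6.48, 6.59 and 4.97 CPM in mock (2.03 ± 0.45, edgeR adjusted p 0.0281). ARR5 was called as well, at 4.72 ± 1.15 (edgeR adjusted p 0.0374). ARR9 lost its call in 5 of the 6 fits that each left out 1 library.

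ARR7 and ARR4 were not called, and in both the stimulus libraries fell on either side of mock. ARR7 had 24.3, 42.3 and 0.532 CPM in stimulus, against 3.85, 3.72 and 3.1 CPM in mock. Stimulus replicates 2 and 3 were thus above all mock libraries and stimulus replicate 4 below all of them. ARR4 had 47.3, 37.3 and 1.29 CPM in stimulus, against 3.66, 5.86 and 3.28 CPM in mock, the same order. At 0 min ARR7 stood at 43.4, 44.6 and 25.3 CPM in stimulus, and ARR4 at 37.2, 39.6 and 53.8 CPM. Those are separate samples, and the labels do not tie a replicate number to the same leaves across times. ARR6 had too few counts to enter the test, with 334, 406 and 1 counts in stimulus against 0, 3 and 0 in mock. Without replicate 4 of both treatments, 7 type-A regulators of 8 tested rose, and without replicate 2 or replicate 3 none did. With the block 2, 1 and 6 rose without replicates 2, 3 and 4. Leaving out stimulus replicate 2, stimulus replicate 3 or any 1 mock library left 1 that rose, and leaving out stimulus replicate 4 gave 6.

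Cytokinin oxidases break cytokinin down, and of the 4 tested 2 rose and 1 fell. CKX6 had 45.6, 60.0 and 13.6 CPM in stimulus against 1.32, 1.25 and 2.22 CPM in mock, and rose by 4.65 ± 0.61 (edgeR adjusted p 0.00560). CKX1 had 21, 14 and 17 counts in stimulus against 2, 3 and 2 in mock, a ratio of 6.01 (95% exact interval 2.72 to 15.7, counting error only). CKX7, the cytosolic member, had 5.81, 5.15 and 4.1 CPM in stimulus against 12.5, 9.19 and 9.22 CPM in mock. It fell by 1.04 on the log2 scale (SE 0.22, edgeR adjusted p 0.0243), a call lost with total counts as library sizes (edgeR adjusted p 0.112). LOG3, which releases active cytokinin from its nucleotide, had 139, 163 and 52.3 CPM in stimulus against 0.916, 0.889 and 0.488 CPM in mock. It rose by 7.24 ± 0.57 (edgeR adjusted p 0.00175) without overlap.

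Brassinosteroid biosynthesis transcripts were low in stimulus. Of 9 genes tested 7 fell and none rose, and their median log2 change was -3.62, against 0.02 over all genes. CPD, which encodes a cytochrome P450 of the pathway, had 1.80, 2.98 and 1.86 CPM in stimulus against 28.7, 28.9 and 24.9 CPM in mock. It fell by 3.62 on the log2 scale (SE 0.24, edgeR adjusted p 0.00108). DWF4, the C-22 hydroxylase that limits the pathway, had 1.18, 1.45 and 0.494 CPM in stimulus against 23.8, 22.1 and 8.78 CPM in mock (-4.1 ± 0.54, edgeR adjusted p 0.00559). Without replicates 2, 3 and 4 of both treatments 0, 1 and 7 of the 9 genes were called lower, and with the block 7, 6 and 7. Both replicate 4 libraries were the lowest of their groups for DWF4, and the ratio between treatments was close in each pair, with log2 ratios of -4.22, -3.84 and -3.90 for replicates 2, 3 and 4.

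Later enzymes of the pathway were close to 0 counts in stimulus. BR6OX2, the last of them, had 1, 4 and 1 counts in stimulus against 619, 481 and 128 in mock, a ratio of 253 in favour of mock (95% exact interval 116 to 690, counting error only). CYP90D1 had 1, 0 and 0 counts in stimulus against 86, 95 and 36 in mock, a ratio of 268 in favour of mock (47.6 to 10634), and ROT3 2, 4 and 4 against 142, 55 and 58. The sterol enzymes upstream moved less. DWF1 had 130.3, 130.0 and 145 CPM in stimulus against 222, 226 and 269 CPM in mock (-0.82 ± 0.15, edgeR adjusted p 0.0149), and DWF7 fell by 1.09 on the log2 scale (SE 0.19, edgeR adjusted p 0.0132). DET2 (-0.37, edgeR adjusted p 0.468) and DWF5 (0.16, 0.616) were not called, and DWF5 was called higher with total counts as library sizes.

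Of the 10 genes of brassinosteroid inactivation and signalling 3 rose and none fell. BAS1, a P450 that inactivates brassinosteroids, had 38.0, 46.0 and 29.2 CPM in stimulus against 0.806, 0.955 and 0.710 CPM in mock. The replicates of each group lay close together, and BAS1 rose by 5.50 ± 0.25 (edgeR adjusted p 0.000616). PRE1, a small helix-loop-helix protein that promotes cell elongation, had 7.62, 4.83 and 3.00 CPM in stimulus against 1.06, 0.856 and 0.843 CPM in mock (2.48 ± 0.40, edgeR adjusted p 0.00980). PRE5, its relative, rose by 3.44 (edgeR adjusted p 0.0324). The receptor gene BRI1 had 16.6, 24.9 and 11.7 CPM in stimulus against 45.9, 39.9 and 28.4 CPM in mock, without overlap. It was called as lower with the block only (edgeR adjusted p 0.0140, against 0.0569 without it).

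Procambium and vascular regulators rose in part. Where 7.21% of all genes rose, and 12.4% with the replicate block, 8 of the 20 tested rose and none fell. With the block 9 rose and 1 fell. None was called without replicate 2 or replicate 3, and 8 rose without replicate 4, while with the block 8, 7 and 8 rose without replicates 2, 3 and 4. MP, the auxin response factor that starts vein formation, had 118, 108 and 137 CPM in stimulus against 34.5, 24.5 and 36.8 CPM in mock (1.92 ± 0.20, edgeR adjusted p 0.00315). ATHB8, a homeodomain gene of early procambium, had 149.6, 182 and 101 CPM in stimulus against 31.0, 20.9 and 16.1 CPM in mock (2.67 ± 0.33, edgeR adjusted p 0.00455). Neither gene overlapped between groups. TMO6, a DOF transcription factor of vascular tissue, had 134, 163 and 27.3 CPM in stimulus against 10.6, 7.58 and 3.86 CPM in mock (3.88 ± 0.72, edgeR adjusted p 0.0159).

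PXY, the receptor that keeps cambium cells dividing, had 70.1, 93.0 and 48.7 CPM in stimulus against 23.4, 21.7 and 10.4 CPM in mock (1.93 ± 0.37, edgeR adjusted p 0.0170). REV, a homeodomain gene of organ and vascular polarity, rose by 1.31 ± 0.23 (edgeR adjusted p 0.0128). WOX4, which acts downstream of PXY, went the other way, with 0.404, 0.493 and 0.114 CPM in stimulus against 2.78, 2.4 and 0.798 CPM in mock. It was called with the block (edgeR adjusted p 0.0110) and not without it (0.0526). The xylem master regulators VND6 (-1.05, edgeR adjusted p 0.338) and VND7 (-0.34, 0.680) and the phloem regulator APL (0.06, 0.890) were not called. Replicate 4 was the lowest library of both treatments for 15 of the 20 genes.

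Among all genes 7.21% rose and 8.87% fell, and with the replicate block 12.4 and 14.2%. Of 15 cell cycle genes tested 5 rose and 1 fell, and with the block 10 rose and 1 fell. None was called without replicate 2 or replicate 3, and 10 rose without replicate 4, while with the block 8, 4 and 8 rose without replicates 2, 3 and 4. CDKB2;2, a kinase of the G2 and M phases, had 9.79, 10.8 and 11.2 CPM in stimulus against 2.64, 2.17 and 2.31 CPM in mock (2.16 ± 0.19, edgeR adjusted p 0.00232). CDKB1;1 rose by 1.68 ± 0.23 (edgeR adjusted p 0.00623). CYCB1;1, a mitotic cyclin, had 5.66, 6.85 and 3.46 CPM in stimulus against 2.67, 2.4 and 1.33 CPM in mock, and CYCB1;2 had 9.67, 12.7 and 5.36 CPM against 6.15, 5.57 and 2.53 CPM in stimulus and mock. In CYCB1;2 the lowest stimulus library, replicate 4, lay below the mock libraries of replicates 2 and 3 but above the mock library of its own number. The edgeR adjusted p was 0.0588 for CYCB1;1 and 0.184 for CYCB1;2 without the block, and 0.0126 and 0.0191 with it.

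CYCA1;1, a mitotic cyclin outside this list, showed a similar layout with 22.3, 27.9 and 6.34 CPM in stimulus against 4.65, 4.28 and 1.02 CPM in mock. Its log2 ratio was 2.23, 2.67 and 2.52 in the 3 pairs (edgeR adjusted p 0.0564 without and 0.00294 with the block). KNOLLE, which builds the cell plate, was called with the block only (edgeR adjusted p 0.0170, against 0.105). The member that fell was CYCD1;1, a G1 cyclin, with 0.373, 1.26 and 0.152 CPM in stimulus against 8.02, 9.36 and 2.57 CPM in mock (-3.43 ± 0.82, edgeR adjusted p 0.0342). For 10 of the 15 genes replicate 4 was the lowest library of both treatments.

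Cell wall loosening genes rose in part, 7 of 17 expansins and xyloglucan enzymes against 7.21% of all genes, and none fell. None was called without replicate 2, replicate 3 or stimulus replicate 2, and 8 rose without replicate 4, while with the block 5, 4 and 7 rose without replicates 2, 3 and 4. EXPA4 had 288, 306 and 141 CPM in stimulus against 64.7, 70.1 and 55.3 CPM in mock (1.95 ± 0.31, edgeR adjusted p 0.00945). EXPA8 had 29.1, 27.4 and 10.5 CPM in stimulus against 2.2, 3.33 and 1.02 CPM in mock (3.34 ± 0.55, edgeR adjusted p 0.0105). XTH19, a xyloglucan-remodelling enzyme, had 221, 329 and 63.0 CPM in stimulus against 45.7, 12 and 8.25 CPM in mock (3.22 ± 0.85, edgeR adjusted p 0.0473). Without overlap in these genes, stimulus replicate 4 was again the lowest stimulus library. EXPA1 overlapped, with 573, 577 and 97.0 CPM in stimulus against 96.6, 207 and 70.1 CPM in mock, and was not called (edgeR adjusted p 0.149).

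ACC synthases make the precursor of ethylene, and 2 of the 5 tested rose, where 7.21% of all genes did. ACS4 had 555, 1599 and 78 counts in stimulus against 1, 5 and 0 in mock, a ratio of 301 (95% exact interval 138 to 822, counting error only). ACS5 had 387, 532 and 65 counts in stimulus against 1, 0 and 0 in mock. ACS8 had 8.42, 9.37 and 3.57 CPM in stimulus against 1.87, 0.198 and 0.266 CPM in mock, and was called with the block (edgeR adjusted p 0.0232) but not without it (0.0530). Other genes with near-empty mock libraries were BCA3, a carbonic anhydrase, with 298, 1079 and 302 counts in stimulus against 2, 2 and 1 in mock, and AT5G66940, with 372, 708 and 40 against 3, 1 and 0.

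Nuclear photosynthesis genes were lower in stimulus in every pair, and most were not called without pairing. Of 20 genes tested 4 fell without the block and 20 with it, and none rose. Their median log2 change was -1.54, against 0.02 over all genes. RBCS2B, a small subunit gene of Rubisco, had 357, 396 and 555 CPM in stimulus against 1488, 1879 and 1804 CPM in mock. The spread within a treatment was 1.56-fold in stimulus and 1.26-fold in mock, and RBCS2B fell by 1.98 on the log2 scale (SE 0.24, edgeR adjusted p 0.00442). RBCS1B, another small subunit gene, fell by 1.77 on the log2 scale (SE 0.22, edgeR adjusted p 0.00444). LHCB3, a light-harvesting protein of photosystem II, had 361, 58.2 and 624 CPM in stimulus against 1422, 207 and 2081 CPM in mock. Its libraries differed 10.7-fold within stimulus and 10.1-fold within mock, with replicate 3 lowest in both. The treatment-only fit gave -1.83 ± 1.01 (edgeR adjusted p 0.271), and the block gave -1.85 ± 0.11 (edgeR adjusted p 0.00273).

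The same was seen across the list. Replicate 3 was the lowest library of both treatments for 16 of the 20 genes. All 20 log2 ratios were negative in each of the 3 pairs, with medians of -1.54, -1.67 and -1.40 for replicates 2, 3 and 4. Without the block, 0 of the 20 were called without replicate 2, 0 without replicate 3 and 6 without replicate 4. With the block, 20 were called lower in each of these 3 fits. At 0 min LHCB3 stood at 478, 412 and 461 CPM in stimulus against 1666, 288 and 1295 CPM in mock, so only mock replicate 3 was low at that time. At 0 min 11 of the 20 genes were called lower, where 29.6% of all genes tested were. The mesophyll marker sum given above includes RBCS1A and LHCB1.3 of this list, and its part in the result was not tested. Near-identical RBCS and LHCB1 copies can share reads, so their single values are uncertain.

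**Figure D2:**
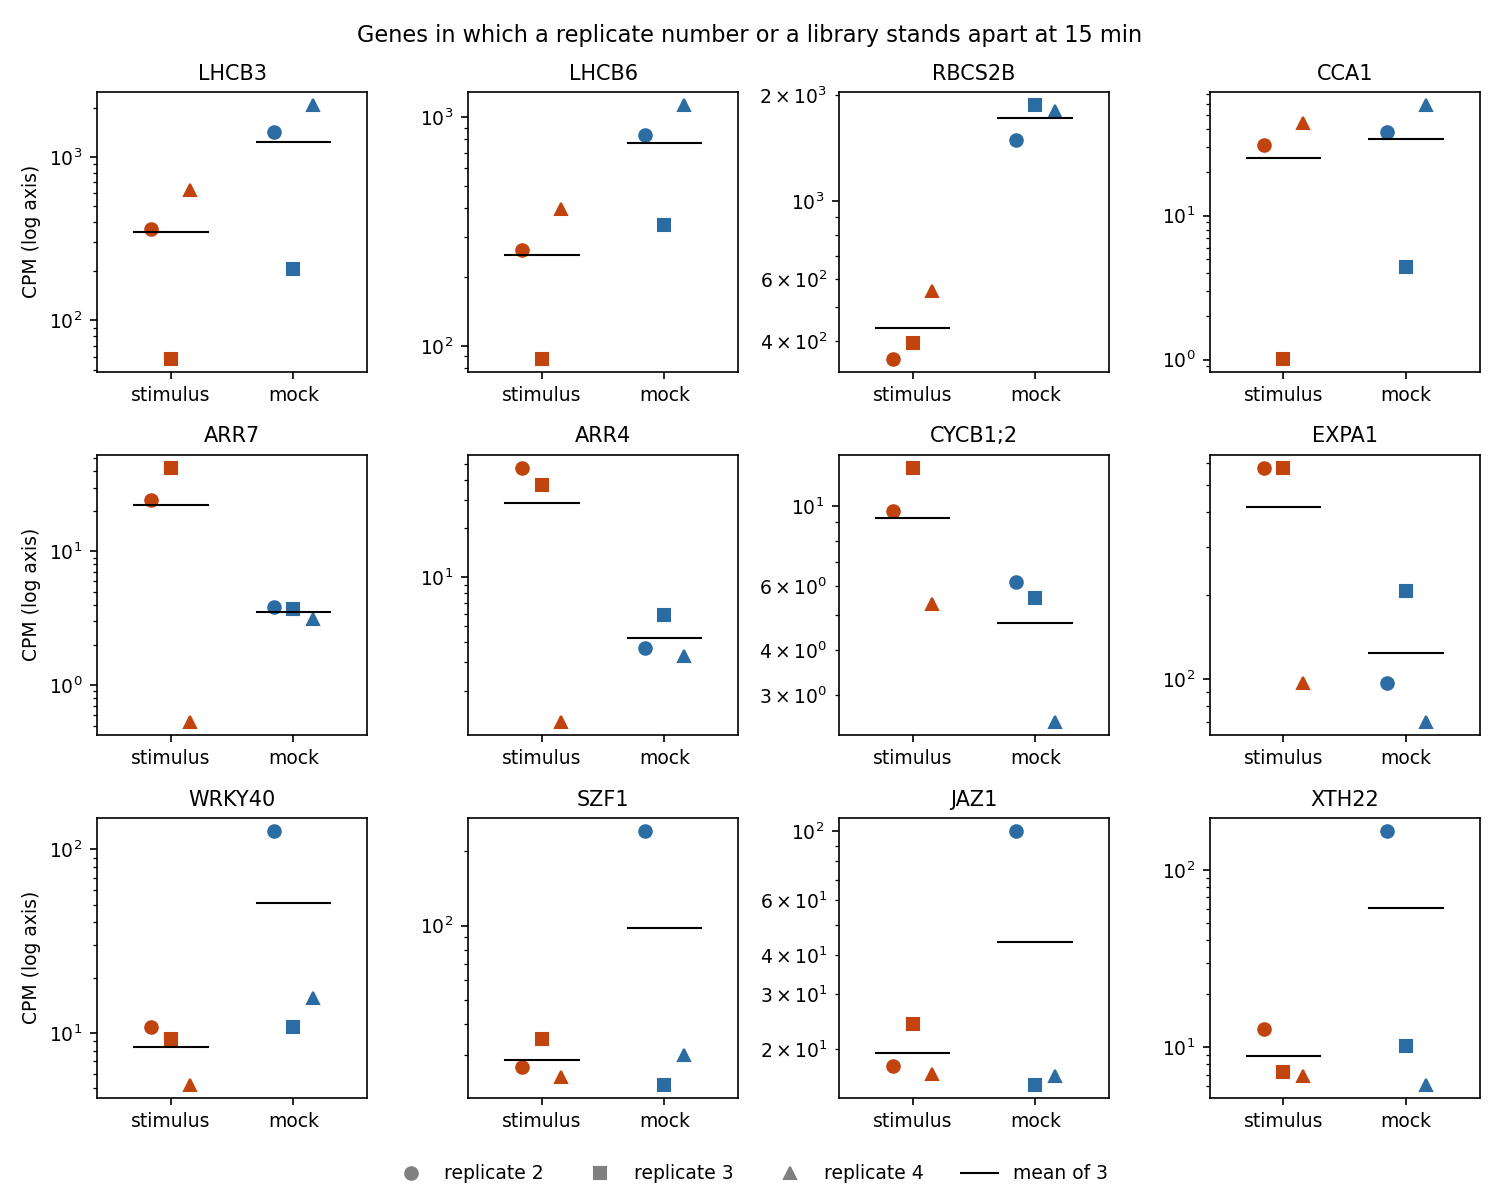
Levels of 12 genes at 15 min, in CPM on a log axis, with the 3 stimulus libraries left of the 3 mock libraries and black lines at the means of 3. A replicate number or a library stands apart in these genes except RBCS2B, which spread 1.56-fold within stimulus and 1.26-fold within mock. Replicate 3 (squares) is low in both treatments for LHCB3, LHCB6 and CCA1, stimulus replicate 4 (triangle) is the lowest library for ARR7 and ARR4, and mock replicate 2 (circle) is above the rest for WRKY40, SZF1, JAZ1 and XTH22.

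Clock genes showed how replicate 3 differed. The clock score, the mean log2 CPM of 7 evening genes minus that of 5 morning genes, was -1.29, 2.62 and -1.48 in stimulus replicates 2, 3 and 4 and -0.69, 1.70 and -1.35 in mock. Replicate 3 was thus on the evening side in both treatments, and the other 4 libraries on the morning side. The difference between treatments was 0.06, with an exact two-sided permutation p of 0.9, where 3 against 3 libraries cannot go below 0.1. At 0 min the score was -1.47, -0.98 and -1.25 in stimulus and -0.81, 1.80 and -1.01 in mock. Stimulus replicate 3 was thus on opposite sides in the libraries labelled 0 and 15 min, and mock replicate 3 on the evening side in both. Whether the labelled times hold for these libraries was not tested.

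CCA1, a morning transcription factor at the core of the clock, had 31.1, 1.01 and 43.8 CPM in stimulus against 38.1, 4.41 and 59.0 CPM in mock, a range of 43.3-fold within stimulus and 13.4-fold within mock. None of the 7 evening and 5 morning genes was called. With the block 1 was called, PRR3, a partner of TOC1. It had 4.82, 9.00 and 4.22 CPM in stimulus against 11.7, 24.8 and 12.2 CPM in mock, and its log2 change was -1.43 (edgeR adjusted p 0.0605 without and 0.00396 with the block). PRR5 (-0.37, edgeR adjusted p 0.626), RVE1 (0.57, 0.574) and RVE8 (-0.47, 0.690), the other clock genes with the smallest p, were not called. The median log2 change of the evening genes was -0.17, and 0.16 with total counts as library sizes.

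A set of 200 genes chosen for their loss by 60 min showed how replicate 4 differed. The decline index was the mean log2 CPM of 200 genes relative to the mean of the 0 min libraries of the same treatment. The genes were those with the largest loss by 60 min in stimulus replicates 2 and 4. The index at 15 min was -0.33, 0.07 and -1.84 in stimulus replicates 2, 3 and 4, and -0.16, -0.51 and -1.71 in mock. Replicate 4 of both treatments was thus far below replicates 2 and 3. The index was -1.73, -0.35 and -2.78 in stimulus and -0.02, -1.81 and -2.38 in mock at 60 min, and mock replicate 2 stood at -0.12 at 240 min. Stimulus replicates 2 and 4 of 60 min chose the genes, so their low values are built in. Of the other libraries labelled 60 min, stimulus replicate 3 and mock replicate 2 lay above both replicate 4 libraries of 15 min. Mock replicate 3 of 60 min lay near them, and mock replicate 4 of 60 min below them. Mock replicate 2 showed little decline at any labelled time. Whether these values reflect the labelled times was not tested. The difference between treatments was 0.09, with an exact two-sided permutation p of 0.8. Stimulus replicate 4 already stood at -0.23 at 0 min, against 0.13 and 0.11 in stimulus replicates 2 and 3.

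**Figure D3:**
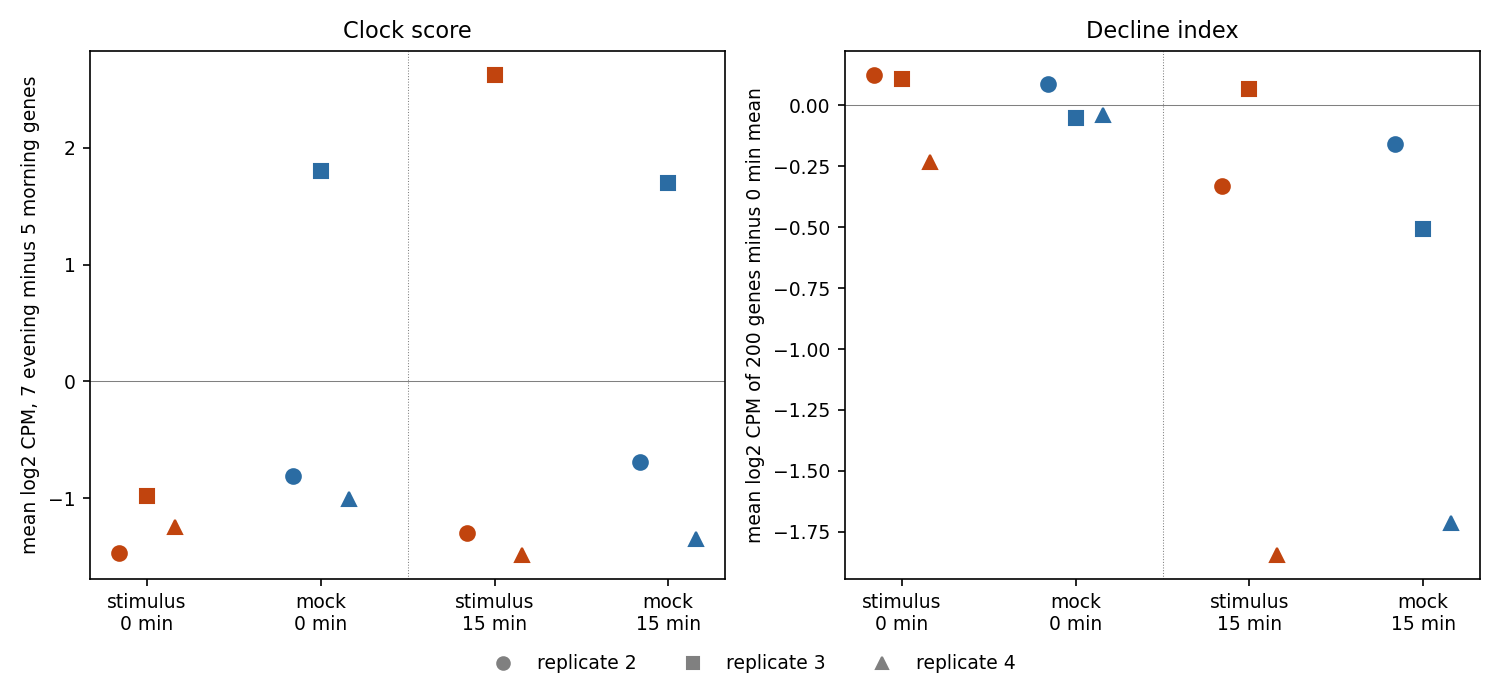
Clock score (left) and decline index (right) of the 12 libraries of 0 and 15 min, both in log2 CPM units, with stimulus left of mock at each time and symbols for replicates 2, 3 and 4. At 15 min replicate 3 has the highest clock score of each treatment (2.62 in stimulus and 1.70 in mock) and replicate 4 the lowest decline index (-1.84 in stimulus and -1.71 in mock).

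Of 11 iron deficiency genes 4 fell, and 7 with the block, and none rose. Among all genes 8.87% fell, and 14.2% with the block. Mock replicate 2 was the highest of the 6 libraries for 8 of the 11. Without it 1 of 12 genes tested fell and 1 rose, without stimulus replicate 2 none was called, and without mock replicate 3 only 1 fell. OPT3, an iron transporter of the phloem, had 83.0, 88.0 and 68.3 CPM in stimulus against 236, 166 and 156 CPM in mock (-1.22 ± 0.21, edgeR adjusted p 0.0117). BHLH100, an iron-response transcription factor, had 0.218, 1.82 and 0.0760 CPM in stimulus against 35.6, 22.3 and 7.05 CPM in mock (-4.85 ± 1.08, edgeR adjusted p 0.0276). FRO2, a ferric chelate reductase, fell by 3.00 on the log2 scale (SE 0.65, edgeR adjusted p 0.0245). These genes did not overlap between groups, but BHLH100 lost its call in 3 and FRO2 in 5 of the 6 fits that each left out 1 library.

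Of 13 glucosinolate biosynthesis genes 5 fell, and 8 with the block, against 8.87 and 14.2% of all genes. Mock replicate 2 was the highest of the 6 libraries for all 13. Without it 2 fell and the median log2 change was -1.59, against -2.43 with it, and without stimulus replicate 2 or stimulus replicate 3 only 1 fell. MYB29, a transcription factor of the aliphatic pathway, had 1, 0 and 0 counts in stimulus against 141, 48 and 100 in mock, a ratio of 357 in favour of mock (95% exact interval 63.6 to 14147, counting error only). SOT18, a sulfotransferase of the last step, had 3.51, 3.18 and 7.10 CPM in stimulus against 26.3, 14.2 and 15.6 CPM in mock (-2.03 ± 0.40, edgeR adjusted p 0.0183). MAM1, which lengthens the side chain, had 1.34, 0.912 and 8.70 CPM in stimulus against 51.0, 8.56 and 38.6 CPM in mock. MAM1 overlapped between groups and was called with the block only (edgeR adjusted p 0.0216, against 0.0807 without it).

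Among the largest differences outside the lists were 3 genes that were low in stimulus. AT5G22580 had 3, 2 and 0 counts in stimulus against 494, 507 and 448 in mock. VSP2, a jasmonate-induced storage protein, had 0.559, 0.0493 and 0.722 CPM in stimulus against 27.7, 3.26 and 14.9 CPM in mock (-5.16 ± 1.05, edgeR adjusted p 0.0207). ATSBT5.2, a subtilisin-like protease, had 0.311, 0.222 and 0.987 CPM in stimulus against 20.5, 10.8 and 19.3 CPM in mock (-5.11 ± 0.60, edgeR adjusted p 0.00429). CSLA01, a cellulose synthase-like gene, was called at -4.53 ± 1.16 (edgeR adjusted p 0.0430). Its mock values of 32.8, 1.52 and 5.28 CPM were led by replicate 2, and the call was lost with the block (edgeR adjusted p 0.0700).

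Some stress-linked genes rose, where 7.21% of all genes were called higher. Of 4 dark and sugar-starvation genes tested 2 rose, the senescence-associated SAG13 (1.75 ± 0.38, edgeR adjusted p 0.0250) and SAG21 (1.59 ± 0.42, 0.0464). SAG13 had 2.89, 3.58 and 2.89 CPM in stimulus against 0.623, 0.824 and 1.33 CPM in mock. Each lost its call in 4 of the 6 fits without 1 library. Of 4 heat shock genes 1 rose, the chaperone gene HSP90.1, with 186, 70.4 and 105 CPM in stimulus against 30.7, 29.5 and 37.2 CPM in mock (1.90 ± 0.36, edgeR adjusted p 0.0162). HSP70 had 239, 84.5 and 238 CPM in stimulus against 71.0, 30.6 and 89.2 CPM in mock. Its log2 ratio was 1.75, 1.46 and 1.41 in the 3 pairs, and it was called with the block only (edgeR adjusted p 0.00344, against 0.0897).

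Mock replicate 2 stood apart in wound-type and jasmonate genes. Of 13637 genes compared across the 6 libraries, 154 were at least 2-fold above the next library in mock replicate 2 and 40 at least 4-fold, against 1 to 16 and 0 in the other libraries. It was the highest of the 6 for 19 of 26 rapid-turnover stress regulators and for 7 of 8 JAZ genes. The mean log2 CPM of the stress regulators was 4.51 in mock replicate 2 and 2.1 to 3.00 in the other 5 libraries, and that of the JAZ genes 4.97 against 1.65 to 2.19. WRKY40, a stress-induced transcription factor, had 10.8, 9.22 and 5.20 CPM in stimulus against 127, 10.7 and 15.6 CPM in mock. SZF1, a zinc finger gene of early stress responses, had 26.8, 34.9 and 24.4 CPM in stimulus against 242, 22.7 and 29.9 CPM in mock. JAZ1, a jasmonate repressor, had 17.7, 24.1 and 16.6 CPM in stimulus against 100.5, 15.3 and 16.3 CPM in mock.

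None of the 26 stress regulators was called without the block and 1 with it, WRKY6 (log2 change 0.97, edgeR adjusted p 0.0227). ERF6, an ethylene response factor, had 0.808, 0.764 and 1.63 CPM in stimulus against 16.9, 1.84 and 5.59 CPM in mock (edgeR adjusted p 0.0546). Their median log2 change was -1.13, and -0.14 without mock replicate 2, so most of that median rested on this library. Of 8 JAZ genes 1 was called, a share near the 8.87% of all genes called lower. It was JAZ9, with 2.67, 1.97 and 6.30 CPM in stimulus against 68.0, 19.1 and 9.71 CPM in mock (-3.16 ± 0.82, edgeR adjusted p 0.0446). That call was lost with the block (edgeR adjusted p 0.0683) and in 4 of the 6 fits without 1 library. JAZ3 had the next smallest p and was not called (edgeR adjusted p 0.143). JAZ7 and JAZ8, too low to be tested, had 2, 1 and 3 counts and 11, 1 and 4 counts in stimulus, and in mock 360, 0 and 0 counts and 376, 4 and 0 counts.

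RNA decay factors carry out decapping, deadenylation and exonucleolytic decay, and none of the 16 tested was called. With the block 1 fell, AT2G45810, with 33.5, 30.3 and 39.2 CPM in stimulus against 49.4, 50.7 and 46.4 CPM in mock (log2 change -0.52, edgeR adjusted p 0.0445). Their median log2 change was 0.12. With total counts as library sizes 5 of the 16 rose and the median was 0.45, while the same scaling moved all genes by a median of 0.34. The other factor with the smallest p, AT3G61240, was not called (0.36, edgeR adjusted p 0.100). CAF1a, a deadenylase gene, had 11.6, 11.4 and 8.85 CPM in stimulus against 66.3, 9.78 and 6.08 CPM in mock, and mock replicate 2 was again the high library.

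Most stimulus differences of 0 min kept their direction at 15 min, and fewer than 1 in 3 were called there. At 0 min, 11332 of 20070 genes were called (56.5%), 5392 higher (26.9%) and 5940 lower (29.6%). With the block these were 10835 (54%), 5152 (25.7%) and 5683 (28.3%). Of the 11332, 11122 could be tested at 15 min. Of these, 3256 were called with the same sign at 15 min (29.3%), 7709 had the same sign without a call (69.3%), 157 had the other sign without a call (1.41%), and none was called with the other sign. With the replicate block 5240 were called with the same sign (47.1%). Seen from 15 min, 99.2% of the 3281 calls were also called at 0 min. The 2 comparisons share no library.

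How large the difference was at 0 min went with whether it was called at 15 min. Genes with an absolute log2 change under 0.5 at 0 min were called at 15 min in 2.57% of 3146 cases, those from 0.5 to 1 in 22.0% of 3873, from 1 to 2 in 51.3% of 2911, from 2 to 4 in 67.2% of 1028 and over 4 in 86.0% of 164. With the block these shares were 15.4, 47.2, 67.3, 79.9 and 90.9%. In these 5 classes the median fitted change at 15 min in the direction of 0 min was 0.32, 0.61, 1.19, 2.23 and 4.40, against median absolute changes of 0.37, 0.70, 1.33, 2.54 and 4.81 at 0 min. Genes were placed in these classes by their 0 min estimate, so some regression toward smaller values is built into the comparison.

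**Figure D4:**
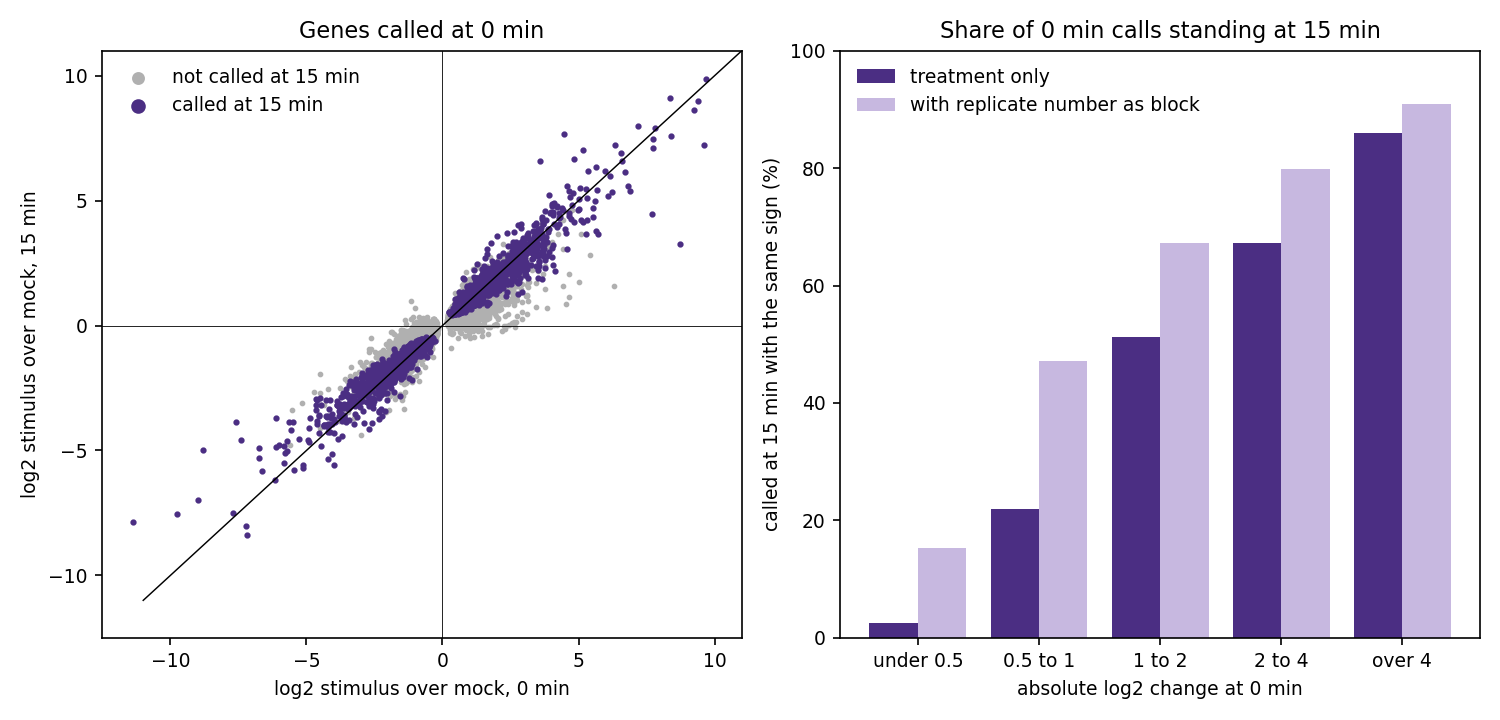
Stimulus differences of 0 min at 15 min. Left, the log2 change of stimulus over mock at 15 min against that at 0 min for the 11122 genes called at 0 min, with calls at 15 min in purple and equal change as the diagonal line; right, the share of these genes called at 15 min with the same sign by their absolute log2 change at 0 min, without (dark) and with (light) the replicate block. The share runs from 2.57 to 86.0% without the block and from 15.4 to 90.9% with it.

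The spread between replicates was wider at 15 min than at 0 min. The common biological coefficient of variation was 34.5% at 15 min and 12.8% at 0 min, and 22.8% at 15 min once the replicate number was in the fit. Within groups it was 29.4% for stimulus and 28.8% for mock at 15 min, against 9.36% for stimulus and 14.9% for mock at 0 min. The median SE of a log2 change was 0.26 at 15 min, 0.18 at 15 min with the block, and 0.13 at 0 min. Among called genes of at least 10 CPM, 5% had an absolute log2 change below 0.59 at 15 min, 0.45 with the block and 0.26 at 0 min.

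The direction held in each pair. For the 4103 genes that were called at 0 min with at least a 2-fold change, the median log2 ratio in the direction of the call was 1.46, 1.51 and 1.15 in the pairs of replicates 2, 3 and 4 at 15 min, and 1.45, 1.58 and 1.51 between same-numbered libraries at 0 min. The numbers were not taken to pair the libraries of 0 min. These genes were picked by their 0 min call and size, so larger values at 0 min are partly built in. At 15 min 97.9, 97.5 and 95.9% of them had the sign of the call in these pairs. The pair of replicate 4 had the smallest median and the lowest decline index.

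The libraries in the fit decided how many genes were called. Without replicate 2 of both treatments no gene was called (3425 at an unadjusted p under 0.05), and without replicate 3 the calls at 15 min were 52, but without replicate 4 they were 4844. With the block the counts were 2690, 2423 and 4433 without replicates 2, 3 and 4. Leaving out 1 library gave 881, 1563 and 4478 calls for stimulus replicates 2, 3 and 4, and 1918, 1360 and 2437 for the mock ones. Of the 44 called genes picked by the naming rule, 25 kept their call in each of the 6 fits without 1 library, among them GH3.3, GH3.2, IAA19, ARR15, LOG3, CPD, BAS1, MP and RBCS2B, while 42 kept it with the block and 41 with total counts. Without replicate 2, 0 of the 44 were called by edgeR. The edgeR adjusted p of GH3.3, IAA19, CPD and BAS1 was then 0.0737.

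The other 19 lost it in at least 1 of the 6 fits, and all of them except AT5G66940 and HSP90.1 did so without stimulus replicate 2. That was the only library to end the call of EXPA4, EXPA8 and OPT3, with edgeR adjusted p of 0.0504, 0.0539 and 0.0643. AT5G66940 lost it without mock replicate 3 (0.0567), and HSP90.1 without mock replicate 2 (0.0559) or mock replicate 3 (0.0750). PRE1 lost it without stimulus replicate 2 (0.0528) or mock replicate 3 (0.0518), VSP2 without stimulus replicate 2 (0.101) or mock replicate 2 (0.0532), and SOT18 without stimulus replicate 2 (0.0991) or stimulus replicate 3 (0.0631). ARR9, CKX7, BHLH100, FRO2, SAG13, SAG21, JAZ9, CSLA01, LPAT4, AT2G36220 and AT1G77122 lost it in 3 to 5 of the fits, and the highest edgeR adjusted p among these was 0.181, for JAZ9.

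**Figure D5:**
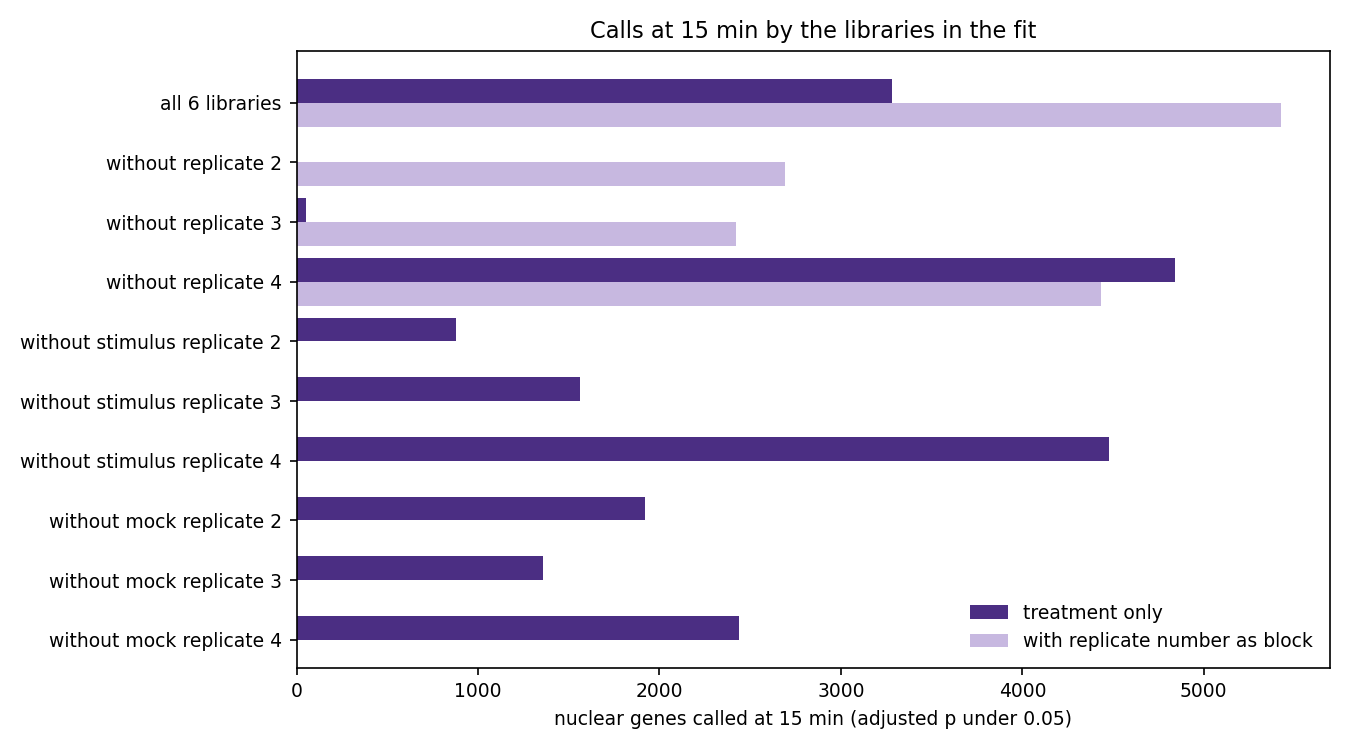
Number of nuclear genes called at 15 min (edgeR, adjusted p under 0.05) by the libraries in the fit, for treatment alone (dark) and with the replicate number as a block (light, for the fits that keep whole pairs). The count is 3281 with all 6 libraries, 0 without replicate 2, 52 without replicate 3 and 4844 without replicate 4, and from 2423 to 5423 with the block.

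Some genes with large differences at 0 min were not called at 15 min. AT5G06570 had 14.1, 15.8 and 2.66 CPM in stimulus at 15 min against 0.330, 0.791 and 3.55 CPM in mock, with a log2 change of 5.41 at 0 min and an edgeR adjusted p of 0.0984 at 15 min. In this gene stimulus replicate 4 had come below mock replicate 4. NAC036, a NAC transcription factor, had 27.7, 44.7 and 6.91 CPM in stimulus against 6.59, 1.35 and 1.55 CPM in mock at 15 min (edgeR adjusted p 0.0571 without and 0.0335 with the block). BT2, a BTB scaffold protein gene, had 3.2, 12.7 and 0.342 CPM in stimulus against 99.0, 68.0 and 2.04 CPM in mock (edgeR adjusted p 0.175 without and 0.0192 with the block). The mock libraries of BT2 differed widely, and stimulus was lower in every pair. AT5G62280 (edgeR adjusted p 0.0505 without and 0.0322 with the block) had 18.2, 33.2 and 2.2 CPM in stimulus against 2.12, 0.264 and 0.443 CPM in mock. AT5G07580 and AT5G61590, the last of these genes, had edgeR adjusted p of 0.0993 and 0.105. Their mock values of 31.1, 5.27 and 1.73 CPM and of 37.5, 5.34 and 1.24 CPM were led by replicate 2.

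Of the genes called with the block only, LEA7, a late embryogenesis abundant protein gene, shows the layout most plainly. It had 50.9, 3.62 and 63.9 CPM in stimulus against 1.32, 0.165 and 3.46 CPM in mock, with log2 ratios of 5.17, 3.81 and 4.17 in the pairs. The edgeR adjusted p was 0.0534 without and 0.00263 with the block. In AT2G30766 it was replicate 4 that was low, with 16.3, 13.6 and 2.09 CPM in stimulus against 91.1, 69.9 and 16.3 CPM in mock (edgeR adjusted p 0.0988 without and 0.00273 with the block). AT3G46320 was higher in stimulus in the same way (1.97, edgeR adjusted p 0.0821 without and 0.00292 with the block). WCRKC1, a thioredoxin gene, had 2.80, 7.30 and 2.66 CPM in stimulus against 10.4, 31.6 and 11.3 CPM in mock, with replicate 3 highest in both (edgeR adjusted p 0.0603 without and 0.00294 with the block).

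Whether the stimulus difference itself had changed between 0 and 15 min was tested as a treatment by time term over the 12 libraries of these times. Of 21165 genes none was called (0%) by edgeR, with 0.999944 as the smallest adjusted p. Without adjustment 222 genes had a p under 0.05, and 458 with the block. Both are a smaller share of the 21165 than the 0.05 that a calibrated test gives when nothing changes. The fit pooled libraries of unlike spread, with a common biological coefficient of variation of 34.5% at 15 min and 12.8% at 0 min. The lack of calls thus does not show that the differences were unchanged. DESeq2 called none either, with 279 genes under 0.05 before adjustment. Of the 222, 177 were called at 0 min, and for 165 of these the difference was smaller at 15 min. Those 177 were picked by their 0 min call and by the p of the difference. A smaller value at 15 min is thus partly built into that count, and no direction of change is drawn from it. Since the test of the difference called no gene, a gene called at 0 min and not at 15 min is not shown to have changed its difference.

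The genes nearest to a change are named as values only. AT2G36220 had 24.9, 22.6 and 19.1 CPM in stimulus against 11.8, 5.37 and 9.00 CPM in mock at 15 min, and 26.4, 32.0 and 31.4 CPM against 4.1, 4.83 and 3.02 CPM in stimulus and mock at 0 min. Its log2 change was 1.35 at 15 min and 2.91 at 0 min (unadjusted p of the difference 0.00101), since its mock libraries were higher at 15 min. CRK14, a receptor-like kinase gene, had a log2 change of 2.30 at 15 min and 3.78 at 0 min (unadjusted p 0.00245). AT2G41130 widened, with log2 changes of 3.72 at 15 min and 3.15 at 0 min (unadjusted p 0.0111), and had 67.2, 69.8 and 68.4 CPM in stimulus against 5.64, 5.63 and 4.26 CPM in mock at 15 min. HSFC1, a heat shock factor gene, had log2 changes of -0.19 at 15 min and 1.07 at 0 min (unadjusted p 0.00227). Cpn60beta4, a chloroplast chaperonin subunit gene, had -1.66 and -2.45 (0.0149), AT3G28270 -1.05 and -2.69 (0.021), and AT1G77122 -0.72 and -1.16 (0.0229) at 15 and 0 min. The call of AT1G77122 at 15 min was lost with total counts as library sizes (edgeR adjusted p 0.115).

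Only 25 genes were called at 15 min and not at 0 min, 9 of them untested at 0 min. Of the 16 tested at both times 15 had the same sign at both. LPAT4, an acyltransferase gene of lipid synthesis, was the exception, with 7.90, 7.69 and 7.41 CPM in stimulus against 13.2, 10.6 and 13.5 CPM in mock at 15 min. Its log2 change was -0.69 at 15 min (edgeR adjusted p 0.0330) and 0.09 at 0 min (0.629). The call at 15 min was lost with total counts as library sizes (edgeR adjusted p 0.201) and in 5 of the 6 fits without 1 library. Hsp70-2, a chaperone gene, and FRO3, a mitochondrial ferric reductase, were also among the 25, with log2 changes of 0.90 and -0.99 at 15 min and 0.50 and -0.90 at 0 min.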

How the data were processed

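The authors deposited a table of raw counts per feature with 1 column for each of the 24 libraries, from ribosome-depleted, stranded total RNA read for 50 cycles at one end, per the labels' protocols. The submitters' processing notes name TopHat2, Bowtie2 and TAIR10; the counting tool and whether it used strand are not given in the sources used here, so reads of the 19 of 72 named genes that overlap another annotated gene may be shared. Symbols came from RefSeq TAIR10.1, which matched 37751 features.

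Counts were filtered with filterByExpr, scaled by TMM and tested with edgeR's quasi-likelihood F test (edgeR 4.0.16, limma 3.58.1 and R 4.3.3, robust, two-sided, Benjamini-Hochberg over all features, adjusted p under 0.05) on the 6 libraries of 15 min, with treatment as the term. The 6 libraries of 0 min had a fit of their own, and the difference between times a fit over all 12. Alternatives were DESeq2 1.42.0, limma-voom, other scalings and filters, the replicate block, a test beyond 1.5-fold, and fits without a library or a replicate. Organelle features stayed in the fits and nuclear ones were counted. CPM were computed from these counts with TMM library sizes. Intervals and floors cover counting error only. The test was tried on simulated counts with known changes. Their spread was set below that of the 15 min libraries and held no deviations shared by replicate number. The trial thus does not show how the test behaves at the spread of 15 min.

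Replicate numbers come from the labels, which do not say what a number marks. At 15 min the deviations of same-numbered stimulus and mock libraries from their group means correlated at 0.36, 0.55 and 0.68 over 10242 genes. All were above 0.1, so the numbers were taken to pair the libraries. Of unlike numbers, stimulus replicate 3 with mock replicate 2 also passed 0.1, at 0.28, and the others lay from -0.68 to -0.06. At 0 min the same-numbered correlations were -0.05, 0.15 and -0.09, and the numbers were not taken to pair them. Unlike numbers reached 0.16 and 0.17 there, so the cut of 0.1 alone does not tell like from unlike numbers. Replicate pairs differed beyond sampling noise (chi-square per degree of freedom 41.9 to 130).

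Genes were named by rule: the 6 largest called changes in each direction of at least 10 CPM without overlap, the 2 smallest p of each list, 4 in each direction for the difference between times and for calls of 0 min not called at 15 min, and 3 in each direction called with the block only. Other list members given with values were chosen after their values were seen. The members and lists were chosen with earlier results of these data known. A gene that the rule names is not reported here.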

Additional observations from a re-analysis of the deposited data

How the results depend on the processing

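Calls at 15 min and 0 min calls standing at 15 min stayed within 1.5 times of 3281 and 3256 with median-ratio scaling, nuclear features only, DESeq2, limma-voom, no filter, a minimum of 10 CPM and all 24 libraries in one fit, where they ran from 2681 to 4888 and from 2656 to 4795. They moved to 4986 and 4923 with total counts, to 5423 and 5240 with the replicate block, and to 1265 and 1252 when a change beyond 1.5-fold was required, which is stricter by construction. Calls at 0 min moved to 4882 when a change beyond 1.5-fold was required and to 5105 with all 24 libraries in one fit; the cause of the last was not tested. Leaving out a replicate number or 1 library gave from 0 to 4844 calls at 15 min and from 0 to 4745 standing. The spread between replicates at 15 min was 22.8% with the replicate block. The block ended 48 of the 3281 calls. The difference between 15 and 0 min gave 0 calls in all 20 alternatives. Of 1552 values of 72 named genes under 22 settings, 1234 kept their side of the threshold, 192 lost the call and 126 gained one. In 0 cases did the sign change where the gene was called in either fit. A change of sign without a call was not counted apart and falls among the 1234. Depth was not varied. With 3 libraries per group no group could be screened for outlying samples, and an exact permutation test cannot go below 0.1.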
